A study of Mus musculus with 4 samples.

Results

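Complex I of the mitochondrial respiratory chain was followed through its nuclear genes in mouse hearts 28 days after surgery. Members were the genes of the deposited table whose symbol is Nduf followed by a, ab, b, c, s, v or af and a number, and whose estimated counts summed to at least 48 over the 4 libraries. This gave 45 of the 55401 genes listed, 37 named as subunits and 8 named as assembly factors (Ndufaf). Each of the 45 also passed the filter on low counts. The Sham group (n = 2) underwent thoracotomy with no ligation. The MI group (n = 2) underwent the ligation operation that models myocardial infarction. No other treatment or allele is named for either group, and no source used here gives strain, age or sex. The samples are labelled as heart, while the design text speaks of infarcted tissue and normal left ventricle, so the region taken is not known for each library. Hearts treated with cyanidin, the pigment named in the series title, were not analysed here. Separate animals are not stated, so p-values measure only how far these libraries spread, and that spread may be technical.

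Complex I takes electrons from NADH, passes them through a flavin and a chain of iron-sulfur clusters to ubiquinone, and pumps protons across the inner mitochondrial membrane. Its matrix arm holds the redox centres and is entirely nuclear encoded, whereas the pumping core of its membrane arm is encoded in mitochondrial DNA and surrounded by nuclear accessory subunits. Assembly factors bind intermediates while the modules are built and are absent from the finished enzyme. Heart muscle, which contracts without pause, is among the tissues richest in the complex.

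The 4 libraries held 66624106 to 75979320 estimated counts. Cardiomyocyte markers were abundant in every library, with 10 of 10 markers detected. Levels are in CPM (counts relative to a library size set by the trimmed mean of M-values, TMM), with replicate 1 before replicate 2. The cardiomyocyte markers summed to 61471 and 58942 CPM in Sham and 46962 and 53596 CPM in MI. The 8 fibroblast markers summed to 731 and 964 CPM in Sham and to 3700 and 2235 CPM in MI. The 6 endothelial markers summed to 602 and 613 CPM in Sham and 812 and 740 CPM in MI. Libraries also differed in transcripts of other tissue. The 6 atrial markers summed to 5601 CPM in Sham replicate 2 and to 192 to 2191 CPM elsewhere (Myl7, an atrial light chain, 743 CPM against at most 0.683), and the 5 fat cell markers to 184 CPM there and at most 0.529 elsewhere. Outside Sham replicate 2 most of the atrial sum was Nppa alone, with 162 CPM in Sham replicate 1 and 2174 and 1717 CPM in MI. The 6 lung markers summed to 255 CPM in MI replicate 1 and to at most 1.93 elsewhere, with surfactant gene Sftpc at 0 in the other 3 libraries. The 5 erythroid markers summed to 16313 CPM in Sham replicate 1, the library highest for most members, to 5585 CPM in Sham replicate 2 and to 7922 and 10785 CPM in MI. The part of these transcripts in the members' values was not tested, and medians without each library are given with the results. The share of counts from mitochondrial DNA ranged from 32.6 to 34.0% in Sham and from 27.3 to 30.9% in MI.

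Subunit transcripts were abundant and spanned a wide range of levels, and assembly factor transcripts were rare. Mean levels over the 4 libraries in FPKM (fragments relative to gene length and to the size of the library) ran from 9.50 for Ndufb2 to 282 for Ndufb9 among subunits, with a median of 98.0. Among assembly factors they ran from 2.65 for Ndufaf4 to 18.2 for Ndufaf1, with a median of 6.38. The 8 assembly factors made up 1.45 to 1.65% of the members' summed CPM in any library. The 7 core genes encoded in mitochondrial DNA lay far above both, from 4589 FPKM (mt-Nd3) to 26308 FPKM (mt-Nd1). The deposited FPKM divides by the length of all annotated exons of a gene, so a gene with long rare transcripts is set low. Per kilobase of its principal transcript, the Sham level was highest for Ndufa4 (658 CPM per kilobase), followed by Ndufb10 (630), Ndufb8 (503) and Ndufb9 (501).

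**Figure D1:**
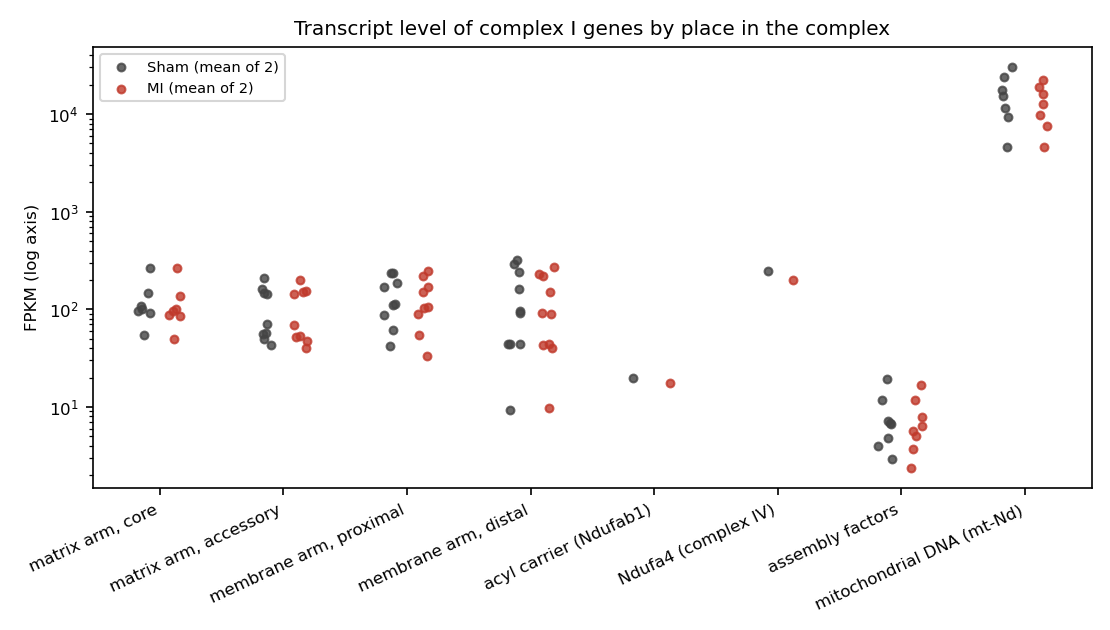
Mean FPKM of each gene (log axis) by its place in complex I, Sham in grey and MI in red (each point is the mean of 2 libraries). Assembly factors lie below nearly all subunits, and the 7 genes of mitochondrial DNA lie above them, in both groups.

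The question the design poses is whether these transcripts differ between infarcted and Sham hearts. With TMM scaling every member had a log2 difference (MI minus Sham) below 0 (45 of 45, where 49.8% of all genes tested lay below 0). The count was 34 of 45 when libraries were scaled to the cardiomyocyte markers, against 26.2% of all genes. In limma on log2(FPKM + 1) it was 37 of 45, against 29.3% of all genes. The median log2 difference was -0.32 for subunits and -0.30 for assembly factors, against 0.00 for all 18475 genes tested. At an adjusted p under 0.05, edgeR's quasi-likelihood test with Benjamini-Hochberg adjustment called 0 of 45 members, against 0% of all genes. At an unadjusted p under 0.05 that test had 8 members lower, against 4.51% of all genes, and 0 higher: Ndufb10, Ndufc1, Ndufa4, Ndufaf4, Ndufaf1, Ndufab1, Ndufs3 and Ndufs4. DESeq2, run as an alternative, called 1 member, Ndufb10, lower at an adjusted p under 0.05, against 1.61% of the genes it tested. In bulk tissue such a difference cannot be told apart between fewer cells of a type and less RNA per cell.

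Most members placed the 4 libraries in a similar order. In TMM-scaled CPM 41 members had each MI library below each Sham library (34 subunits and 7 assembly factors), against 21.9% of all genes. Sham replicate 1 was the highest library for 38 members and MI replicate 1 the lowest for 39. On the deposited FPKM scale the separation was seen for 20 members (18 subunits and 2 assembly factors), against 8.89% of all genes. In the other direction 1 member, Ndufa2, had each MI library above each Sham library in FPKM, as did 7198 of all 18475 genes tested. The members' summed CPM were 9207 and 8264 in Sham and 6539 and 7360 in MI. As a share of all counts they took 0.807 and 0.805% in Sham and 0.749 and 0.751% in MI. Leaving out Sham replicate 1 gave a subunit median of -0.21, and leaving out MI replicate 1 gave -0.22. Leaving out Sham replicate 2 or MI replicate 2 gave -0.41 and -0.39. The assembly factor median moved from -0.30 to -0.20 without MI replicate 1. Of the 44 members reported singly, 32 had a log2 difference that moved by over 1.5 times, or turned its sign, when 1 library was left out, 25 of them without Sham replicate 1.

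The log2 differences of the 45 members had a standard deviation over members of 0.12, and the standard error (SE) of a single member had a median of 0.16. The members share the spread between the 4 libraries, so these values do not show whether members differ. Of the 37 subunits, 29 lay within 0.1 of the subunit median. Abundant and rare subunits did not separate (Spearman's rho between log2 difference and mean FPKM 0.11 across 37 subunits, which share the same 4 libraries). The subunits and the assembly factors had nearly the same median in TMM-scaled counts, with a difference of -0.02 between them. This difference stayed between -0.05 and 0.00 in the alternatives, but those that only rescale the libraries could hardly change it. With 1 library left out it ranged from -0.05 (without MI replicate 2) to -0.0009 (without Sham replicate 1). As a fraction of all member CPM the assembly factors had 1.49 and 1.54% in Sham and 1.65 and 1.45% in MI, so the groups overlapped.

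**Figure D2:**
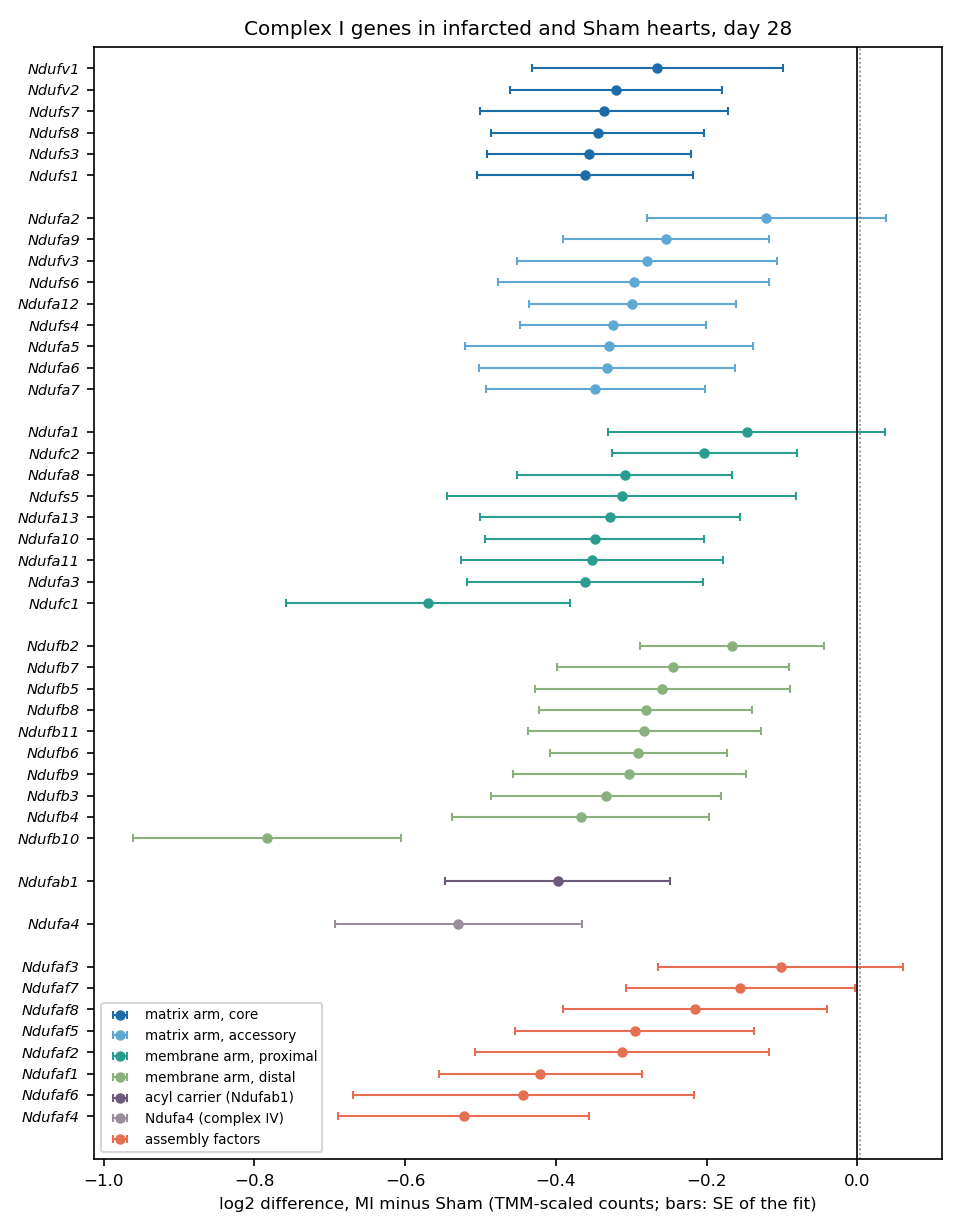
Log2 difference (MI minus Sham) of 44 of the 45 members in TMM-scaled counts, ordered by place in the complex, with the standard error of the fit as bars; the solid line marks 0 and the dotted line the median of all genes tested. All points lie below 0 under this scaling (of all 45 members, 34 do with cardiomyocyte scaling), most near -0.3, with Ndufb10 lowest at -0.78.

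Ndufb10, an accessory subunit of the distal membrane arm that faces the intermembrane space and is held by disulfide bonds, showed the lowest ratio of all members. Its transcript stood at 334 and 308 FPKM in the Sham libraries and at 208 and 226 FPKM in the MI libraries. The groups did not overlap, and the gap between them was larger than the gap within either. Mean FPKM in MI was 67.6% of that in Sham, while the next lowest members were Ndufc1 at 79.4%, Ndufa4 at 80.1% and Ndufaf4 at 81.4% (Ndufb10 averaged 321 ± 17.9 in Sham, 217 ± 13.3 in MI, SD, n = 2). In TMM-scaled CPM the libraries read 503 and 419 in Sham and 241 and 295 in MI, which gave a log2 difference of -0.78 ± 0.18 (SE). The adjusted p of this difference was 0.307 in edgeR's quasi-likelihood test with Benjamini-Hochberg adjustment. In DESeq2 the adjusted p was 0.0058, and over all alternatives it ranged from 0.0058 to 0.991. The difference was -0.52 with cardiomyocyte scaling and -0.56 in limma on log2(FPKM + 1). It was the lowest of all members in each alternative except when Sham replicate 1 or MI replicate 1 was left out, where it was -0.64 in both and Ndufa4 and Ndufc1 were lower. Leaving out Sham replicate 2 or MI replicate 2 gave -0.91 and -0.92.

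Ndufb10 lies on chromosome 17 at 24722060 to 24724478 on the minus strand in the deposited table, whose identifiers match the GRCm38 annotation. Rps2, a ribosomal protein gene that ends 134 bp away on the plus strand, had a log2 difference of -0.08 ± 0.15 (SE). On the other side, Rpl3l, a ribosomal protein gene of striated muscle that starts 3342 bp away, had -0.60 ± 0.23, with both MI libraries below both Sham libraries in CPM and in FPKM. Msrb1, a methionine sulfoxide reductase gene beyond it, had -0.62 ± 0.29, and its groups overlapped in FPKM. In both genes Sham replicate 1 stood high, with 237 CPM for Rpl3l (124 to 155 elsewhere) and 165 CPM for Msrb1 (81.3 to 93.0 elsewhere). Tbl3, 14400 bp away on the side of Rps2, had -0.24 ± 0.16. Other subunits with the same twin CX9C fold of the intermembrane space were set beside Ndufb10 after its value was seen. Ndufa8 had -0.31 ± 0.14, Ndufs5 -0.31 ± 0.23 and Ndufb7 -0.24 ± 0.15, all near the subunit median.

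**Figure D3:**
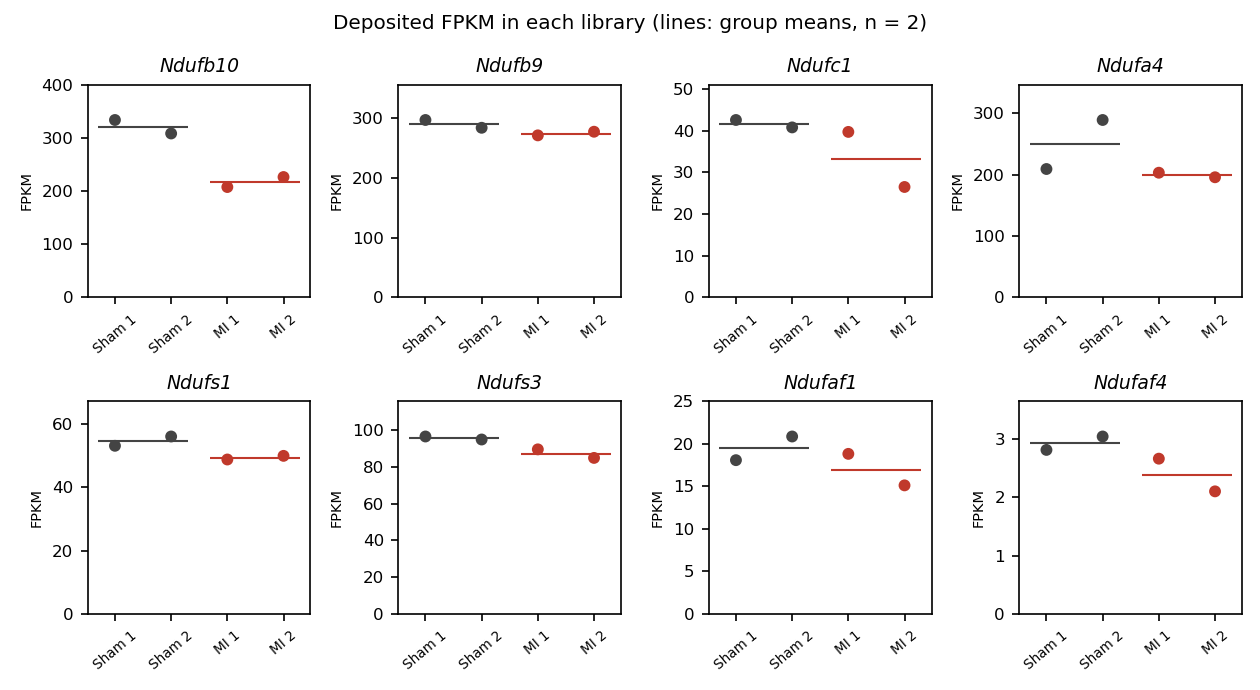
Deposited FPKM of 8 members in each library (vertical axes start at 0; Sham in grey, MI in red; lines mark group means, n = 2). Ndufb10 separates the groups with 308 to 334 FPKM in Sham and 208 to 226 in MI, while 1 library stands apart for Ndufc1 (MI replicate 2) and for Ndufa4 (Sham replicate 2).

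The 7 nuclear core subunits of the matrix arm carry out electron transfer, and all lay lower in both MI libraries than in both Sham libraries in CPM (21.9% of all genes did). In FPKM 4 of the 7 did, against 8.89% of all genes. Their median log2 difference was -0.34. Ndufs1, the largest subunit and carrier of several iron-sulfur clusters, had 533 and 507 CPM in Sham and 377 and 432 CPM in MI (log2 difference -0.36 ± 0.14, SE). Ndufs3, which joins the quinone-reducing module, had 261 and 231 CPM in Sham and 186 and 198 CPM in MI (-0.36 ± 0.14), and was the only core subunit at an unadjusted p under 0.05. Both genes showed 1 ordering, with Sham replicate 1 highest and MI replicate 1 lowest.

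Ndufs8 and Ndufs7, iron-sulfur proteins on the path to ubiquinone, read 179 and 154 CPM (Ndufs8) and 209 and 164 CPM (Ndufs7) in Sham. In MI they read 126 and 136 CPM and 144 and 150 CPM, with log2 differences of -0.34 ± 0.14 and -0.34 ± 0.16. Ndufv2, an iron-sulfur subunit at the NADH end, had 395 and 347 CPM in Sham and 287 and 307 CPM in MI (-0.32 ± 0.14). These 3 genes lay close to the median of their group. Ndufv1, which binds NADH and the flavin, had 320 and 299 CPM in Sham and 227 and 288 CPM in MI (-0.27 ± 0.17), with MI replicate 2 close to the Sham level.

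The 9 accessory subunits of the matrix arm had a median log2 difference of -0.30. Ndufs6, a zinc-binding subunit and the most abundant of the group in FPKM, had 248 and 194 CPM in Sham and 166 and 194 CPM in MI (-0.30 ± 0.18, SE). MI replicate 2 and Sham replicate 2 were level. Ndufa5, the next most abundant, had 215 and 177 CPM in Sham and 136 and 176 CPM in MI (-0.33 ± 0.19), with the same near-contact between replicates 2. Ndufs4, whose loss causes Leigh syndrome in people, had 144 and 132 CPM in Sham and 110 and 110 CPM in MI (-0.32 ± 0.12) and was the group's only member at an unadjusted p under 0.05.

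Ndufa2, a thioredoxin-like subunit, had the smallest difference among the subunits, with 106 and 87.4 CPM in Sham and 83.1 and 95.0 CPM in MI (-0.12 ± 0.16). In FPKM it was higher in both MI libraries (152 and 155, against 150 and 137 in Sham), and its difference was 0.10 in limma on log2(FPKM + 1). The other accessory subunits of this arm, Ndufa6, Ndufa7, Ndufa9, Ndufa12 and Ndufv3, lay between -0.35 and -0.25. Ndufa12 is uncertain, because a processed copy of it, Ndufa12-ps, held 143 to 190% of its count, and reads shared by both genes could have been split in counting. The same holds to a lesser degree for Ndufb4 and Ndufab1, whose copies held 11.7 to 14.03% and 7.95 to 9.37% of their counts.

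Of the 9 subunits of the proximal membrane arm, next to the matrix arm, the median was -0.33. Ndufc1, a small subunit of the ND2 module, had the lowest difference after Ndufb10. It had 79.0 and 68.2 CPM in Sham and 56.7 and 42.4 CPM in MI, and the log2 difference was -0.57 ± 0.19 (SE). In FPKM the libraries read 42.6 and 40.8 in Sham and 39.7 and 26.5 in MI, so MI replicate 2 stood apart from the other 3 libraries. Without MI replicate 2 the log2 difference was -0.36, and without MI replicate 1 it was -0.78. The most abundant in FPKM were Ndufa1 and Ndufa8. Ndufa1, an X-linked subunit needed early in assembly, had 127 and 105 CPM in Sham and 92.1 and 117 CPM in MI (-0.15 ± 0.18), with overlapping groups and a sign that turned to 0.07 in limma on log2(FPKM + 1) and 0.11 with cardiomyocyte scaling. Ndufa8 had 258 and 219 CPM in Sham and 191 and 194 CPM in MI (-0.31 ± 0.14). The other 6 (Ndufa3, Ndufa10, Ndufa11, Ndufa13, Ndufc2 and Ndufs5) lay between -0.36 and -0.20. In Ndufa11, Sham replicate 2 stood high at 71.6 FPKM, against 50.1 to 55.5 in the other libraries.

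In the distal membrane arm, the tip that surrounds the last proton pumps, Ndufb10 lay below the other members. The median of the 10 members was -0.29, and the 9 other than Ndufb10 lay between -0.37 (Ndufb4) and -0.17 (Ndufb2). Ndufb9, an LYR-motif subunit and the most abundant member overall in FPKM, had 379 and 327 CPM in Sham and 267 and 305 CPM in MI (-0.30 ± 0.15, SE). Its FPKM was 297 and 284 in Sham and 271 and 277 in MI, so the groups separated by a small step. For Ndufb2, Braf overlaps on the opposite strand and held 32.0% of its count. No source used here says whether the counting used strand, so Ndufb2 is uncertain, and so, to a lesser degree, are Ndufb11, Ndufb5 and Ndufa3, whose overlapping opposite-strand genes held 10.02, 7.46 and 5.74% of their counts.

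Ndufab1, the mitochondrial acyl carrier protein, sits in both arms and also serves fatty acid and iron-sulfur cluster synthesis. It had 172 and 150 CPM in Sham and 114 and 131 CPM in MI (-0.40 ± 0.15, SE). Its groups did not overlap in FPKM either (20.2 and 19.5 against 17.3 and 17.8). Ndufa4 is a complex I subunit by name but has been reassigned to complex IV. It had 358 and 445 CPM in Sham and 268 and 289 CPM in MI (-0.53 ± 0.16), the third lowest value of all members. In FPKM Sham replicate 2 read 289 and the other libraries between 196 and 209, and the log2 difference in TMM-scaled counts was -0.36 without Sham replicate 2. That library is the one with atrial and fat cell transcripts, whose part in the result was not tested.

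The log2 differences of the 8 Ndufaf assembly factors had an SD over members of 0.15, against 0.12 for the subunits. At an unadjusted p under 0.05 in edgeR 2 of the 8 were lower, against 4.51% of all genes. That count was 0 with cardiomyocyte scaling (1.44% of all genes) and 0 in limma on log2(FPKM + 1) (1.82%). Ndufaf4, which with Ndufaf3 binds the early quinone module, had 13.6 and 13.3 CPM in Sham and 9.94 and 8.77 CPM in MI, and the log2 difference was -0.52 ± 0.17 (SE). Ndufaf1, of the complex that assembles the ND2 module, had 33.6 and 34.99 CPM in Sham and 27.0 and 24.3 CPM in MI (-0.42 ± 0.13). For both genes the groups were apart in CPM, and in FPKM Ndufaf1 overlapped (18.1 and 20.8 in Sham, 18.8 and 15.1 in MI). MI replicate 2 was the lowest library for both. Ndufaf6, an early factor, had 11.2 and 8.21 CPM in Sham and 7.34 and 6.95 CPM in MI (-0.44 ± 0.23). Its log2 difference was -0.20 without Sham replicate 1 and -0.65 without Sham replicate 2.

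The remaining factors lay nearer 0. Ndufaf5, which hydroxylates an arginine of Ndufs7, had 14.9 and 13.6 CPM in Sham and 11.2 and 12.1 CPM in MI (-0.30 ± 0.16, SE). Its partner Ndufaf8 had 11.3 and 11.9 CPM in Sham and 9.21 and 10.7 CPM in MI (-0.22 ± 0.18). Neither was at an unadjusted p under 0.05, and Ndufaf8 was 0.04 with cardiomyocyte scaling. Ndufaf7, an arginine methyltransferase, had 21.2 and 18.2 CPM in Sham and 17.9 and 17.5 CPM in MI (-0.16 ± 0.15). Ndufaf3 had the smallest difference of all members, with 16.5 and 14.4 CPM in Sham and 15.1 and 13.7 CPM in MI (-0.10 ± 0.16), and the groups overlapped. Ndufaf2, a paralog of Ndufa12 that acts late, had 15.0 and 12.97 CPM in Sham and 10.02 and 12.5 CPM in MI (-0.31 ± 0.20). Ndufaf3 and Ndufaf2 are uncertain, since the opposite-strand genes Impdh2 and Smim15 that overlap them held 154 and 66.0% of their counts.

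Other genes of the pathway were described from lists. All 7 complex I genes of mitochondrial DNA were lower in MI with TMM scaling, against 49.8% of all genes. With cardiomyocyte scaling 6 of 7 were, against 26.2%. Their median log2 difference with TMM scaling was -0.49. At an unadjusted p under 0.05 in edgeR 5 of 7 were lower, against 4.51% of all genes. That count was 4 with cardiomyocyte scaling (1.44% of all genes) and 1 in limma on log2(FPKM + 1) (1.82%). DESeq2 called 2 of them lower at an adjusted p under 0.05, against 1.61% of the genes it tested. The most abundant, mt-Nd1, had 35587 and 32736 CPM in Sham and 19168 and 24201 CPM in MI (-0.66 ± 0.20, SE). Next was mt-Nd2, with 32762 and 26506 CPM in Sham and 17992 and 21564 CPM in MI (-0.58 ± 0.21). With cardiomyocyte scaling the median of the 7 was -0.24, and on the FPKM scale -0.28, against -0.06 and -0.10 for the nuclear subunits under the same scalings. The genes of mitochondrial DNA are transcribed from both strands of a compact genome, so mt-Nd6, encoded opposite to the others, is uncertain in counts whose use of strand is not given.

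Of 9 further complex I assembly factors listed, 8 were tested, with a median of -0.26. Of these, 7 lay below 0, against 49.8% of all genes. At an unadjusted p under 0.05 in edgeR 0 were lower, against 4.51% of all genes. With cardiomyocyte scaling their median was 0.0093, with 4 of 8 below 0, against 26.2% of all genes. Ecsit, of the same complex as Ndufaf1, had 75.3 and 62.1 CPM in Sham and 57.8 and 60.6 CPM in MI, and Tmem70 had 59.4 and 54.8 CPM in Sham and 40.8 and 48.5 CPM in MI. The 4 subunits of complex II, succinate dehydrogenase, had a median of -0.30 (-0.04 with cardiomyocyte scaling) and 0 at an unadjusted p under 0.05. The most abundant of them, Sdhd and Sdha, had log2 differences of -0.27 ± 0.14 and -0.40 ± 0.17 (SE). The 20 nuclear subunits of complexes III and IV had a median of -0.25, with 20 of 20 below 0 (8 of 20 with cardiomyocyte scaling) and 1 at an unadjusted p under 0.05. Their 25 assembly factors had a median of -0.19, with 18 below 0 and 3 lower at an unadjusted p under 0.05. With cardiomyocyte scaling the median of these 25 was 0.06, with 9 below 0 and 1 lower at that threshold. No difference between these lists and the members was tested. The 9 transcriptional regulators listed had a median of -0.21 (0.06 with cardiomyocyte scaling), with 6 below 0, 3 above it and 0 at an unadjusted p under 0.05. Among them Ppargc1a, a coactivator of respiratory genes, had 126 and 242 CPM in Sham and 112 and 121 CPM in MI, where Sham replicate 2 alone stood high. Esrra, a nuclear receptor that works with it, had 80.9 and 58.1 CPM in Sham and 60.6 and 59.9 CPM in MI.

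How the libraries were scaled set the size of the members' difference. Cardiomyocyte markers themselves had a median of -0.14 with TMM scaling, and their summed CPM was lower in both MI libraries. Scaled to the summed counts of those 10 markers, the subunit median was -0.06 and the assembly factor median -0.04, while the median of all genes moved to 0.27. A sum gives most weight to the most abundant markers, and Myh6, the highest in CPM, had -0.37 with TMM scaling. Under the cardiomyocyte scaling the markers' own median was 0.12, with 4 of 10 below 0. The members equalled 15.0 and 14.02% of the markers' summed CPM in Sham and 13.9 and 13.7% in MI. When nuclear transcripts alone were kept and scaled to their own total, the medians were -0.18 and -0.17, against 0.14 for all genes. In limma on log2(FPKM + 1) they were -0.10 and -0.07, against 0.10. A change of library scale moves all genes by nearly the same amount, so the gap to the all-gene median could hardly differ among the count-based scalings. The subunit median lay 0.32 below the all-gene median in each of these, and 0.19 below it in limma on log2(FPKM + 1). For the assembly factor median the gaps were 0.31 and 0.17. The genes tested were mostly far rarer than the subunits, with a median of 1.48 FPKM against 98.0. The gap was smaller when only the 4484 genes averaging 5 FPKM or more were kept. The subunit median was then -0.23, against -0.0098 for all genes kept. In limma on log2(FPKM + 0.1) the subunit median was -0.098, against 0.20 for all genes. With TMM scaling the fibroblast markers had a median of 1.88, with 8 of 8 above 0. The endothelial markers had 0.38, with 5 of 6 above 0. The leukocyte markers had 0.20, with 4 of 6 above 0 and 2 below. Of all 18475 genes tested, 9283 lay above 0. The part of cell makeup in the members' difference was not tested.

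**Figure D4:**
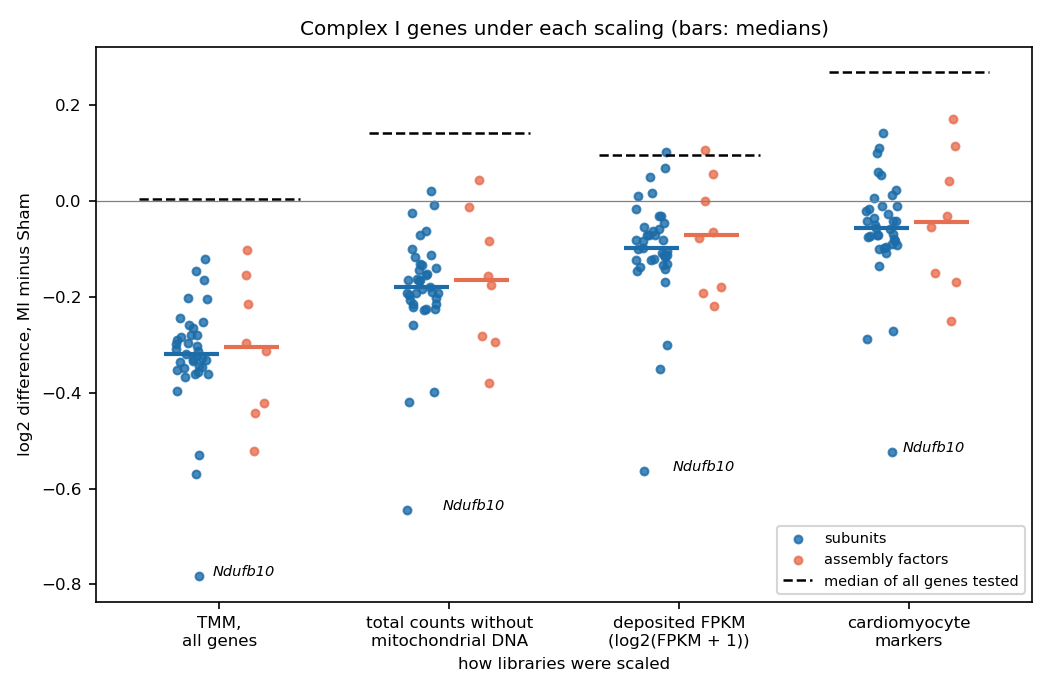
Log2 difference (MI minus Sham) of the 37 subunits (blue) and 8 assembly factors (orange) under 4 scalings, with bars at their medians and dashed lines at the median of all genes tested. The subunit median shifts towards 0 from TMM (-0.32) to cardiomyocyte scaling (-0.06). Both medians lie below the all-gene median in each and Ndufb10 is lowest, an order that a change of library scale alone could hardly alter.

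The members' promoters were scanned for short motifs of factors known to act on respiratory genes, on both strands. RefSeq promoters (GRCm38.p6, 250 bases before to 50 after the start) were found for 40 of the 45 members and compared with all 27025 promoters of 300 bases. For the NRF-1 site, read as GCGCANGCG, 10 of 40 members had a match (25%, against 6.47% of all promoters). Read as CATGCGC, which overlaps the first form, 7 had one (17.5% against 4.04%). The GABP core CCGGAAG was found in 6 (15.0% against 9.12%), the YY1 core AAGATGG in 8 (20.0% against 6.48%) and the estrogen-related receptor motif AAGGTCA in 3 (7.5% against 4.66%). The promoter of Ndufb10 held GCGCANGCG. A match describes the letters only. The 100 bases before the start are shown for 4 members, 3 with an NRF-1 match and 1 assembly factor with a GABP match, with matches in capitals and overlapping matches merged. They lie at chr17:56717662-56717761 (plus strand, Ndufa11), chr4:123718187-123718286 (minus, Ndufs5), chr13:73328483-73328582 (minus, Ndufs6) and chr2:119662835-119662934 (minus, Ndufaf1).
Ndufa11: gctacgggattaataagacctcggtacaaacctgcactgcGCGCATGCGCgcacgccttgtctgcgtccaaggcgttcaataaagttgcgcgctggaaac
Ndufs5: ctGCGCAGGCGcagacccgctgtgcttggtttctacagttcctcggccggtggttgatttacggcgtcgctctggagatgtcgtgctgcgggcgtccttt
Ndufs6: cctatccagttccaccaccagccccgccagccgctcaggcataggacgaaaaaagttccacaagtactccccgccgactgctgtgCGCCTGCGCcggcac
Ndufaf1: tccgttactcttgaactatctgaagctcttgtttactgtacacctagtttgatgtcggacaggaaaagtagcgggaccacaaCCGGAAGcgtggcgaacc
The 3 subunits shown had log2 differences of -0.35 ± 0.17 (Ndufa11), -0.31 ± 0.23 (Ndufs5) and -0.30 ± 0.18 (Ndufs6), and Ndufaf1 had -0.42 ± 0.13 (SE).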

How the data were processed

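Poly(A) RNA of 4 mouse heart libraries (2 Sham, 2 MI, day 28) was sequenced from strand-marked libraries, per the labels' protocols. The deposited table held whole-number estimated counts and FPKM for each gene and library, per the file headers. Cutadapt 1.9, StringTie 1.3.4d, HISAT2 2.0.4 and UMI-tools are named in the submitters' processing notes, with no role or order. The genome build and whether counting used strand are not stated in the sources used here. Low counts pile up at 4 (1158 genes with 4, against 284 with 3 and 192 with 5 in Sham replicate 1). A count may therefore not be 1 fragment, and counts were also tried divided by 4. Of the identifiers, 99.5% occur in GENCODE M21 (GRCm38), as do all 45 members, of which 35 have the same start and end there. Deposited FPKM matched count divided by exon length within 1% for 98.4 to 98.6% of the genes compared.

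The table as a whole was fitted with edgeR 4.0.16 (R 4.3.3): filterByExpr (min.count 10, min.total.count 15), TMM factors 0.877 and 0.975 (Sham 1 and 2), 1.15 and 1.02 (MI 1 and 2), and a 2-sided quasi-likelihood test with Benjamini-Hochberg adjustment over 18475 genes. The smallest adjusted p of any gene was 0.185. DESeq2 1.42.0, limma 3.58.1 and other scalings, filters and left-out libraries were alternatives. With 2 against 2 libraries an exact permutation test cannot go below 0.333. Replicate numbers showed no pairing (correlation of same-number deviations -0.06). The members, gene lists and motifs were chosen with earlier results of these data known.

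Named members were the matrix core, the Ndufaf genes, the 2 most abundant of each structural group, those at an unadjusted p under 0.05 and the highest and lowest log2 difference; in other lists, the 2 most abundant genes. Library markers were picked after their values were seen. Promoters came from RefSeq (GRCm38.p6); among the members without an entry were Ndufa2, Ndufaf6, Ndufb9 and Ndufs1. Of the members, 1 enters the counts and medians but is otherwise not reported here.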

Additional observations from a re-analysis of the deposited data

How the results depend on the processing

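With 2 libraries a group, no setting of edgeR or limma called a member at an adjusted p under 0.05, and DESeq2 called 1. The number lower at an unadjusted p under 0.05 (8, against 4.51% of all genes) is given with the share of all genes under the same setting. It became 1 in limma on log2(FPKM + 1) (1.82%) and on log2(FPKM + 0.1) (1.86%), 2 of 42 members at a mean FPKM of 5 or more (5.51%), 1 with cardiomyocyte scaling (1.44%) and 1 with nuclear transcripts scaled to their own total (2.34%), a setting added after the data were seen. Leaving out a library gave 1 to 16: 4 without Sham replicate 1 (6.10%), 16 without Sham replicate 2 (5.86%), 2 without MI replicate 1 (1.95%) and 1 without MI replicate 2 (2.06%). With the replicate block it was 3 (2.99%), and the subunit median was -0.32; the numbers do not pair the libraries, and the block changed no other call. The medians of subunits and assembly factors lay nearer 0 with limma, at -0.098 and -0.071 for log2(FPKM + 1) and at -0.098 and -0.085 for log2(FPKM + 0.1). Cardiomyocyte scaling gave -0.056 and -0.044. With nuclear transcripts scaled to their own total the assembly factor median was -0.17. In the other alternatives both medians moved by less than the spread between replicates.

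Signs turned for 10 of the 44 members reported. With cardiomyocyte scaling Ndufa1 was 0.11, Ndufa2 0.14, Ndufa9 0.011, Ndufaf3 0.17, Ndufaf7 0.11, Ndufaf8 0.042, Ndufb2 0.099, Ndufb5 0.0050, Ndufb7 0.023 and Ndufc2 0.061. In limma on log2(FPKM + 1) and log2(FPKM + 0.1), in turn, Ndufa1 was 0.069 and 0.069, Ndufa2 0.10 and 0.10, Ndufaf3 0.11 and 0.12, Ndufaf7 0.057 and 0.067, Ndufaf8 0.00043 and 0.00073, Ndufb2 0.049 and 0.054 and Ndufc2 0.017 and 0.017. With nuclear transcripts scaled to their own total, Ndufa2 was 0.020 and Ndufaf3 0.043. With 1 library left out, Ndufa1 ranged from -0.32 to 0.025 (0.00092 without Sham replicate 1, 0.025 without MI replicate 1), Ndufa2 from -0.25 to 0.028 and Ndufaf3 from -0.20 to 0.0017, the last 2 above 0 only without Sham replicate 1. The cause was not tested. The lowest count of any member in any library was 533 (Ndufaf6).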

Other observations

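Several genes carry an Nduf name but fall outside the rule. Ndufa4l2, a paralog of Ndufa4 known to be induced in low oxygen, was higher in MI, against the direction of the members. It had 11.1 and 10.9 CPM in Sham and 22.9 and 16.8 CPM in MI, a log2 difference of 0.85 ± 0.20 (SE), with an adjusted p of 0.326 in edgeR's quasi-likelihood test with Benjamini-Hochberg adjustment and 0.0384 in DESeq2. Its difference was 1.13 with cardiomyocyte scaling and 0.98 in limma on log2(FPKM + 1). Ndufb1-ps, listed as protein coding under a pseudogene-style name, had 103 and 88.1 CPM in Sham and 77.0 and 84.9 CPM in MI (-0.24 ± 0.14). Ndufa12-ps, a processed copy on chromosome 5, had 173 and 133 CPM in Sham and 104 and 130 CPM in MI, more than Ndufa12 itself in each library. Of the other copies, Ndufa11b had 0 counts in all 4 libraries, and Ndufs5-ps and Ndufs6b held 0.956 to 1.68% and 2.12 to 2.86% of the counts of Ndufs5 and Ndufs6.

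Over genes whose mean FPKM was 10 or more, the 5 non-members whose log CPM over the 4 libraries most resembled the mean subunit profile were Psme1, Atp5a1, Psma1, Psmd14 and Mgst1 (Pearson's r from 0.99975 to 0.99997, over 4 libraries). Atp5a1, the catalytic-core alpha subunit of ATP synthase, had 3281 and 2925 CPM in Sham and 2384 and 2658 CPM in MI. Psma1, a proteasome subunit, had 98.7 and 91.3 CPM in Sham and 79.8 and 85.8 CPM in MI. At a lower bar, 435 of the 2502 genes, members included, had r above 0.95, as did 21 of the 38 members at that level. The profile is the mean of the subunits themselves, so the members' share is partly built in.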
